A study of Mus musculus with 8 samples.

Results

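The histone genes of the mouse pancreas were examined in acute pancreatitis, with the linker histone H1f2 as the starting point. Members were the genes of the expression table whose symbol has the form of a linker histone (H1f and a number), a core histone of the H2a, H2b, H3c, H3f, H4c or H4f series, or the older Hist1h to Hist4h series. By this rule 73 of 16888 genes were members. They comprised 9 linker genes, 20 H2A genes, 17 H2B genes, 14 H3 genes and 13 H4 genes. The family was chosen by the level of H1f2, which was lower in the knockout samples, so the levels and differences of its members are a description of that contrast and carry no test.

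RNA-seq was done on 8 samples of pancreas. Every mouse had received cerulein by repeated injection, which overstimulates the acinar cells and sets off acute pancreatitis. In 4 samples, called CKO1 to CKO4, the labels give the genotype as myeloid-specific Anxa1-knockout. Annexin A1 is a phospholipid-binding protein that limits inflammation. The other 4, called WT1 to WT4, carried Anxa1 flox/flox alleles, so WT here means floxed and not deleted. The sources used here do not give the driver of the myeloid deletion, the strain, the age or whether each sample was a separate mouse, and samples without cerulein were not analysed here. Every p-value therefore measures the spread between these samples only, which may be technical.

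Histones package DNA. A pair each of H2A, H2B, H3 and H4 forms the nucleosome core, and a linker histone H1 binds where DNA enters and leaves it. Most core and H1 genes lie in clusters and are called replication-dependent: they are transcribed mainly in S phase, and their mRNA ends in a short stem-loop in place of a poly(A) tail. Histone variants and replacement forms, such as H2A.Z, H3.3 and H1.0, come from separate genes that are expressed outside S phase and make polyadenylated mRNA. H1.0, the product of H1f0, is known to accumulate in cells that have stopped dividing, which includes most acinar cells of the adult pancreas. Some cluster genes also make polyadenylated mRNA in cells that do not divide.

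Among the members, 61 genes were of the replication-dependent kind, 8 were variants and 4 were replacement or germ-cell forms of the linker histone. Chromosome 13 held 49 of them and chromosome 3 held 11. The letters of the stem-loop (GG, 2 free bases, CTTTT, any base, AG, 2 free bases, CC) were found in the longest GENCODE M21 transcript of 43 of the 71 members with a protein-coding transcript. Read the same way, the letters occurred in 69 of all 21901 genes with such a transcript (0.315%). The stem-loops of the genes described first are printed with their flanking bases (GRCm38, 5′ to 3′, the 16 bases of the stem-loop in capitals). They show which of the main transcripts hold these letters.
H1f2, chr13:23739506-23739533, plus strand: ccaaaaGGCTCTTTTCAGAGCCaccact
H1f3, chr13:23555781-23555808, plus strand: tcaaacGGCTCTTTTCAGAGCCacccac
H1f4, chr13:23621776-23621803, minus strand: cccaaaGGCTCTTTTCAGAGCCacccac
H3c14, chr3:96247321-96247348, plus strand: cacaaaGGCTCTTTTCAGAGCCaccaca
H4c8, chr13:23531452-23531479, plus strand: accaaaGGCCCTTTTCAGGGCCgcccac
H4c9, chr13:22040960-22040987, minus strand: cttaaaGGCCCTTTTTAGGGCCaccaca
H2ax, chr9:44335234-44335261, plus strand: cacaaaGGCCCTTTTAAGGGCCaccacc
The 16 capital bases were the same in the 3 linker genes and H3c14, and 23 of the single-exon members had them. H2ax, a variant gene, also had a stem-loop. The GENCODE transcripts of H1f0 and H2bc4 did not hold these letters. The longest transcripts of H1f3, H1f4, H3c14, H4c8, H4c9 and H2ax run on for 4884, 1153, 1167, 46, 330 and 822 bases past their stem-loops. The letters therefore do not show where a transcript ends. The transcript of H1f2 runs on for 840 bases past its stem-loop and has AATAAA, a signal for poly(A) addition, in its last 40 bases. The length behind its RPKM values was 725 bases, that of the RefSeq span, which ends beside the stem-loop. The sources used here do not say whether the libraries were made by poly(A) selection, so the level of a stem-loop gene is the level of those of its transcripts that the protocol captured.

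Levels are RPKM, reads scaled to the length of the gene and the total of the library, and can be compared between genes of different length. Differences are log2 changes of RPKM + 1, CKO minus WT, with their SE from limma, and a fold is the ratio of the group means. The library totals were 30469002 to 34359802 reads. A gene was tested if it had at least 1 RPKM in at least 4 libraries, which 8513 genes did, and a gene is said to have passed if its limma p, adjusted over all of these by Benjamini-Hochberg, was under 0.05. Of all tested genes 489 were lower in CKO and 121 higher, and their median log2 change was -0.12. With each library centred on its median the split was 267 lower and 305 higher, and with acinar enzymes left out of the totals it was 390 lower and 240 higher. Anxa1 itself averaged 5.48 ± 1.11 RPKM in CKO and 9.98 ± 3.33 in WT (SD, n = 4), and the groups overlapped. In the bulk tissue, fewer cells of a type and less RNA per cell cannot be told apart, here and in every result that follows.

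Of the 73 members, 19 passed the filter, and these are the same 19 that had a mean of at least 1 RPKM over the 8 libraries. They held 98.6% to 99.3% of the summed histone RPKM of a library. All 19 had a lower mean in CKO, and their log2 changes ran from -1.62 for H1f2 to -0.10 for H2az2, which moved to 0.01 with median centring. Their median log2 change was -0.73, against -0.12 for all tested genes, of which 70.4% were negative. The limma threshold was passed by 9 of the 19, all lower and 0 higher, where 7.17% of all tested genes passed, 5.74% lower and 1.42% higher. In 9 of the 19 every CKO library was below every WT library and in 0 above, against 16.2% and 2.46% of all tested genes. Since H1f2 in this contrast chose the family, nothing is read from these counts or this median. In addition, H1f3, H3c14, H4c9 and H4c17 were below 1 RPKM in some CKO libraries (reaching it in 2, 1, 3 and 3 of 4) and in no WT library, so that they met the filter through WT, where they were higher. The number past the threshold was 5 without CKO4, WT2 or WT4 and 6 without CKO2, WT1 or WT3.

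**Figure D1:**
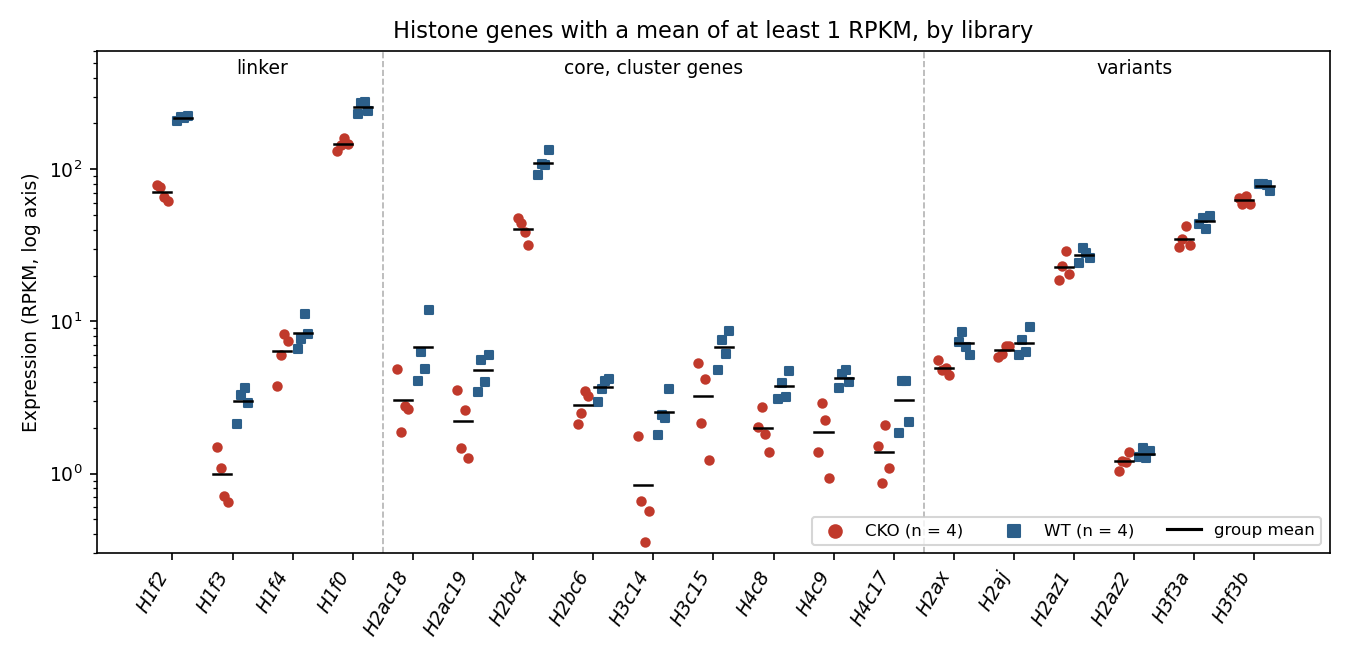
RPKM of the 19 histone genes with a mean of at least 1 RPKM, on a log axis, in each of 4 CKO libraries (circles) and 4 WT libraries (squares), with the group mean as a line. On this axis the group means lie furthest apart in H1f2, H3c14 and H1f3 (3.09-fold, 3.04-fold and 3.02-fold), followed by H2bc4 (2.71-fold). The groups lie closer in the variant genes on the right, with H3f3b at 59.0 to 66.5 RPKM in CKO and 71.9 to 79.9 RPKM in WT.

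The linker histones were the most abundant histone transcripts, and nearly all of their signal came from H1f0 and H1f2. H1f2 encodes H1.2, a linker histone made from the chromosome 13 cluster that is also present in cells that do not divide. It measured 78.2, 76.1, 65.8 and 61.7 RPKM across CKO1 to CKO4 and, across WT1 to WT4, 208.8, 222, 218 and 224 RPKM. The groups were far apart, with the highest CKO library under the lowest WT library by more than the whole spread of either group. It averaged 70.4 ± 8.0 RPKM in CKO and 218 ± 6.57 RPKM in WT (SD, n = 4), a level 3.09-fold lower, with a log2 change of -1.62 (SE 0.11), or -1.50 relative to the median of all tested genes. Between 1412 and 5162 reads lay behind each of these values. Over the 15 other settings tried, the log2 change ran from -1.67 to -1.52.

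H1f0, the replacement linker histone, is a single gene on chromosome 15 outside the clusters. It measured 131, 144, 161 and 146.5 RPKM across CKO1 to CKO4 and, across WT1 to WT4, 230.3, 271, 276 and 240.4 RPKM. Again every CKO library lay below every WT library. It averaged 146 ± 12.3 RPKM in CKO and 254 ± 22.4 RPKM in WT (SD, n = 4), which is 1.75-fold lower with a log2 change of -0.80 (SE 0.11), or -0.68 relative to the median of all tested genes. It shared 0% of its 50-base stretches with the transcripts of other genes.

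H1f3 and H1f4 encode the linker histones H1.3 and H1.4 and were far less abundant. H1f3 measured 1.51, 1.09, 0.718 and 0.653 RPKM across CKO1 to CKO4 and, across WT1 to WT4, 2.10, 3.29, 3.67 and 2.92 RPKM. The groups did not overlap, on 16 to 89 reads a library, and the means were 0.991 ± 0.394 and 3.00 ± 0.670 RPKM (SD, n = 4), 3.02-fold lower in CKO with a log2 change of -1.01 (SE 0.16). At this low level the pseudocount shrinks the log2 change, which was -1.54 with a pseudocount of 0.1 and -1.62 by limma-voom on the reads, against -1.62 for H1f2 in the main comparison. H1f3 reached 1 RPKM in 2 CKO libraries and 4 WT libraries. H1f4 measured 3.78, 5.99, 8.28 and 7.41 RPKM across CKO1 to CKO4 and, across WT1 to WT4, 6.63, 7.65, 11.3 and 8.27 RPKM. These ranges overlapped, and the log2 change was -0.38 (SE 0.21).

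The linker pool is described here by its size and its makeup. H1f2, whose level chose the family, enters both, and H1f2 and H1f0 together held 95.85% to 97.99% of the linker RPKM of a library. The 9 linker genes summed to 215 to 237 RPKM in CKO and to 448 to 509 RPKM in WT, with means of 224 ± 10.2 and 484 ± 28.3 RPKM (SD, n = 4), 2.16-fold lower in CKO. The share of H1f2 in this sum was 36.4%, 33.4%, 27.8% and 28.5% in CKO1 to CKO4, and 46.6%, 44.0%, 42.8% and 47.0% in WT1 to WT4. The share of H1f0 was higher in CKO, at 65.0% ± 3.43 in CKO against 52.5% ± 1.77 in WT (SD, n = 4). The ratio of H1f2 to H1f0 was 0.488 ± 0.0901 in CKO and 0.861 ± 0.0680 in WT (SD, n = 4), with no overlap. A ratio within a library does not change with the library's total. The lower sum, share and ratio follow in part from the choice of H1f2, so nothing further is read from them.

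**Figure D2:**
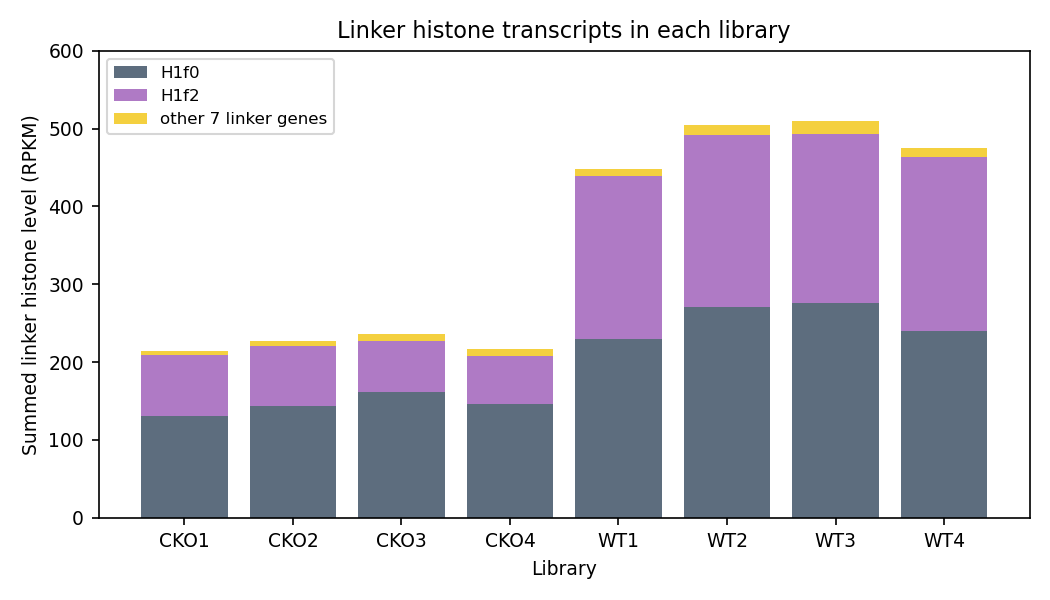
Summed RPKM of the linker histone genes in each library (bars from 0), split into H1f0, H1f2 and the other 7 linker genes. The 4 CKO bars reach 215 to 237 RPKM and the 4 WT bars 448 to 509 RPKM, and the H1f2 segment takes a smaller share of each CKO bar.

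The promoters of the chromosome 13 linker genes H1f2, H1f3 and H1f4 are printed because they share an order of elements, while their transcripts differed in level. The CKO difference was alike in H1f2 and H1f3 (3.09-fold and 3.02-fold lower) and smaller in H1f4 (1.33-fold lower, with overlap). The windows are the 130 bases before the start of each gene in the RefSeq promoter table (GRCm38.p6, 5′ to 3′ on the gene's strand). Capitals mark, from left to right, the AC box AAACACA, the CCAAT box and the TATA box TATANA, each read on both strands with overlapping matches joined.
H1f2, chr13:23738677-23738806, plus strand: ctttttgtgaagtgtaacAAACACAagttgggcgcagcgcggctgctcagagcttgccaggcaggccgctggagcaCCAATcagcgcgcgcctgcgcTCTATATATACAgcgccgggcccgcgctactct
H1f3, chr13:23554902-23555031, plus strand: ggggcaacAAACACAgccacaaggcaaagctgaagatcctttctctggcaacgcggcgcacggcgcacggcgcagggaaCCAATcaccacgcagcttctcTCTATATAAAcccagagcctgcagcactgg
H1f4, chr13:23622559-23622688, minus strand: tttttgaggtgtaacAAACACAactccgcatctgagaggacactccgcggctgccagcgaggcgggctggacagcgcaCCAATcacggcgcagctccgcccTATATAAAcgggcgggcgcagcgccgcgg
The AC box began 112, 122 and 115 bases before the start in H1f2, H1f3 and H1f4, the CCAAT box 54, 51 and 52 bases before it, and the TATA box 31, 28 and 29 bases before it. Over windows from 250 bases before to 50 bases after the start, the AC box letters were in 80.0% of the promoters of the 5 replication-dependent linker genes and in 7.18% of all 32851 promoters. CCAAT was in 82.1% of the 67 histone promoters and in 37.4% of all, and TATANA in 67.2% and 24.7%. The octamer ATTTGCAT, an element of H2B promoters, was in 46.7% of 15 H2B promoters and in 1.74% of all. The H1f0 window, chr15:79027962-79028261, held none of the 4 motifs. It was set on the RefSeq start, and the GENCODE transcript of H1f0 starts past its end, at 79028450. The bases just before that GENCODE start were not read, so the window does not show whether H1f0 lacks these motifs. A match is a description of letters, not a site shown to be used.

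Among the core histones of the clusters, H2bc4 stood far above the rest. It encodes H2B and spans 23684199 to 23692480 on the plus strand of chromosome 13 in 2 exons (GRCm38). It measured 47.8, 44.3, 38.5 and 31.7 RPKM across CKO1 to CKO4 and, across WT1 to WT4, 91.6, 108, 106.5 and 133 RPKM. No CKO library reached the lowest WT library. It averaged 40.6 ± 7.08 RPKM in CKO and 109.9 ± 17.3 RPKM in WT (SD, n = 4), 2.71-fold lower with a log2 change of -1.42 (SE 0.15; -1.30 relative to the median of all tested genes), on 774 to 3144 reads. Its ratio to H1f2 was 0.573 ± 0.0418 in CKO and 0.503 ± 0.0664 in WT (SD, n = 4), and these ranges overlapped. Of the 50-base stretches of H2bc4, 30.1% also occur in transcripts of other genes.

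H2bc6 was the other H2B gene above 1 RPKM. It measured 2.11, 2.49, 3.47 and 3.22 RPKM across CKO1 to CKO4 and, across WT1 to WT4, 2.95, 3.58, 4.08 and 4.21 RPKM. The ranges overlapped and the log2 change was -0.31 (SE 0.14).

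The H4 genes H4c8, H4c9 and H4c17 were at a few RPKM. H4c8 measured 2.02, 2.74, 1.82 and 1.38 RPKM across CKO1 to CKO4 and, across WT1 to WT4, 3.10, 3.94, 3.17 and 4.75 RPKM. H4c9 measured 1.38, 2.89, 2.25 and 0.943 RPKM across CKO1 to CKO4 and, across WT1 to WT4, 3.66, 4.48, 4.77 and 3.99 RPKM. In both genes each CKO library was below each WT library, with log2 changes of -0.67 (SE 0.16) and -0.91 (SE 0.19), the latter -1.25 with a pseudocount of 0.1 and -1.27 by limma-voom. H4c17 measured 1.52, 0.862, 2.10 and 1.09 RPKM across CKO1 to CKO4 and, across WT1 to WT4, 1.86, 4.08, 4.03 and 2.19 RPKM. Its ranges overlapped, its log2 change was -0.73 (SE 0.21), and 89.8% of its 50-base stretches also occur in H4c18 and could have drawn reads from it. For H4c8 and H4c9, 45.8% and 28.9% of these stretches also occur in other genes.

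A block of chromosome 3 holds H3c15 and H2ac19 on the minus strand and H2ac18 and H3c14 on the plus strand, and these encode H3 and H2A. Their sequences are near copies: 100% of the 50-base stretches of H2ac19 occur in H2ac18, and 63.5% to 100% of those of the other 3 genes occur in another transcript. How reads were split between them is not known, so their sum is the safer quantity. The sum came to 15.5, 6.16, 9.91 and 5.74 RPKM across CKO1 to CKO4 and, across WT1 to WT4, 14.1, 21.8, 17.3 and 30.3 RPKM. CKO1 was above WT1, and the other 3 CKO libraries were below all WT libraries. It averaged 9.34 ± 4.54 RPKM in CKO and 20.9 ± 7.03 RPKM in WT (SD, n = 4), a ratio of 2.24. Taken singly, the log2 changes were -0.98 (SE 0.21) for H3c14, -0.97 (SE 0.30) for H3c15, -0.89 (SE 0.29) for H2ac18 and -0.87 (SE 0.22) for H2ac19. H3c14, at 0.353 to 1.76 RPKM in CKO and 1.80 to 3.61 RPKM in WT, was the gene of the block whose groups did not overlap. It was 3.04-fold lower in CKO, and its log2 change was -1.66 with a pseudocount of 0.1 and -1.78 by limma-voom. It reached 1 RPKM in 1 CKO library and 4 WT libraries.

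Summed over the 56 replication-dependent core genes, the level reached 73.3, 62.6, 61.2 and 48.0 RPKM across CKO1 to CKO4 and, across WT1 to WT4, 122, 156.5, 151 and 186 RPKM. The groups did not overlap, and the means of 61.3 ± 10.4 and 154 ± 26.2 RPKM (SD, n = 4) gave a ratio of 2.51. H2bc4 made up 66.2% ± 3.33 of this sum in CKO and 71.6% ± 2.51 in WT (SD, n = 4). Without H2bc4, a choice made after its level was seen, the sum averaged 20.7 ± 4.15 RPKM in CKO and 43.9 ± 9.64 in WT (SD, n = 4), 2.12-fold lower. By core histone the sum was 2.32-fold lower for H2A, 2.62-fold for H2B, 2.27-fold for H3 and 2.11-fold for H4. The ranges of H2A and H3 overlapped, and those of H2B and H4 did not.

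**Figure D3:**
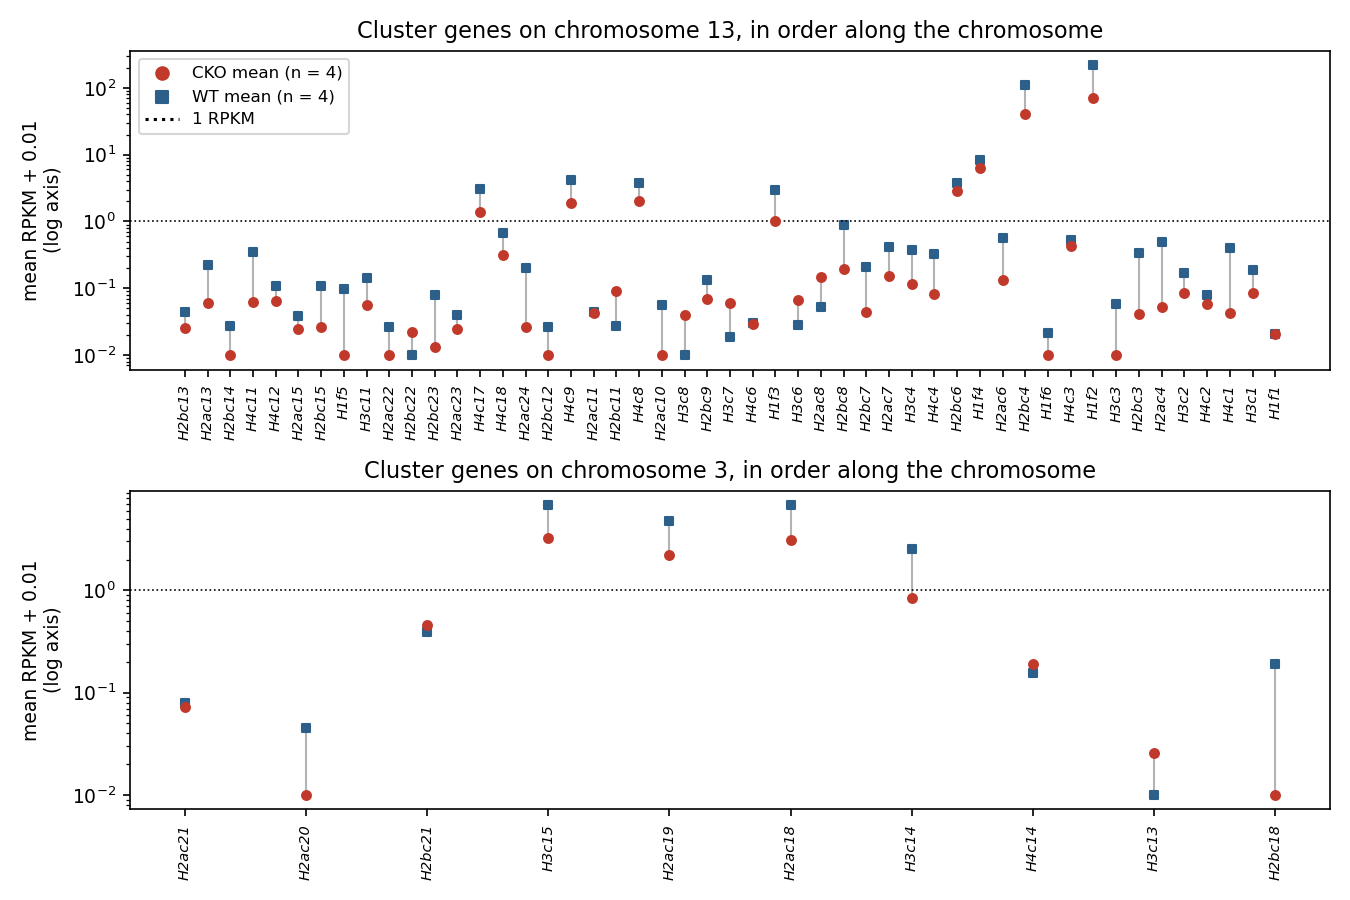
Group means (RPKM + 0.01, log axis) of the cluster genes on chromosome 13 (top) and chromosome 3 (bottom), in their order along the chromosome, with CKO as circles and WT as squares. Genes above 1 RPKM in WT (dotted line) are spread along chromosome 13, with H2bc4 and H1f2 highest, and on chromosome 3 they are the 4 neighbours H3c15, H2ac19, H2ac18 and H3c14.

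The variant genes showed smaller differences. H2ax encodes H2A.X, which is phosphorylated at DNA breaks, and measured 5.56, 4.76, 4.97 and 4.41 RPKM across CKO1 to CKO4 and, across WT1 to WT4, 7.30, 8.57, 6.79 and 6.04 RPKM. Its groups did not overlap and its log2 change was -0.46 (SE 0.13). H2az1, which encodes a form of the variant H2A.Z, measured 18.6, 23.2, 29.0 and 20.5 RPKM across CKO1 to CKO4 and, across WT1 to WT4, 24.1, 30.5, 28.0 and 26.2 RPKM. Its ranges overlapped, with a log2 change of -0.26 (SE 0.14). H2az2 and H2aj, an H2A variant gene, had log2 changes of -0.10 (SE 0.10) and -0.14 (SE 0.14) and overlapping ranges, and with median centring these values were 0.01 and -0.03.

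H3f3a and H3f3b both encode H3.3, the H3 form deposited outside S phase. H3f3b measured 64.3, 59.4, 66.5 and 59.0 RPKM across CKO1 to CKO4 and, across WT1 to WT4, 79.9, 79.4, 79.3 and 71.9 RPKM. These groups did not overlap, but the difference was small, at a log2 change of -0.31 (SE 0.10). H3f3a measured 30.7, 34.6, 42.2 and 31.8 RPKM across CKO1 to CKO4 and, across WT1 to WT4, 43.5, 48.1, 40.5 and 49.4 RPKM. Its ranges overlapped, with a log2 change of -0.38 (SE 0.12). The 8 variant genes together summed to 133 ± 12.4 RPKM in CKO and 166 ± 6.58 RPKM in WT (SD, n = 4), a ratio of 1.25, where the linker sum had a ratio of 2.16 and the replication-dependent core sum one of 2.51.

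The order of the levels therefore differed between the groups. In WT, H2bc4 at 91.6 to 133 RPKM lay above H3f3b at 71.9 to 79.9 RPKM in every library. In CKO, H2bc4 at 31.7 to 47.8 RPKM lay below H3f3b at 59.0 to 66.5 RPKM in every library, and its range overlapped that of H3f3a at 30.7 to 42.2 RPKM. H1f0 led in both groups. H1f2 was second in both, but in CKO its range of 61.7 to 78.2 RPKM overlapped that of H3f3b.

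**Figure D4:**
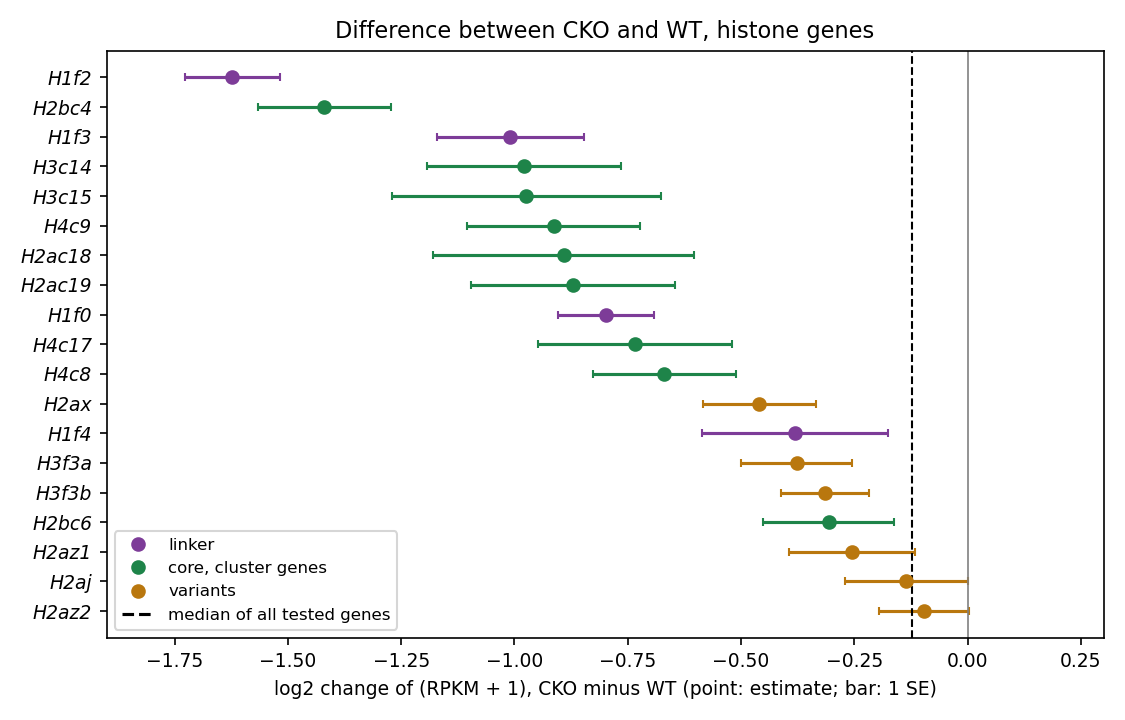
Log2 change of RPKM + 1 (CKO minus WT) with 1 SE for the 19 histone genes with a mean of at least 1 RPKM, ordered by size and coloured as linker, core cluster or variant genes, with the median of all tested genes (-0.12) as a dashed line. H1f2 (-1.62) and H2bc4 (-1.42) stand at the low end and H2aj (-0.14) and H2az2 (-0.10, or 0.01 with median centring) at the high end.

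The other 54 members had means of 0.00558 to 0.529 RPKM, and no value of theirs was above 1.24 RPKM. In 23 of them no library had more than 2 reads, which is below the 3 reads taken as the least that show a level. Over all 54, the reads summed to 85, 110, 124 and 94 in CKO1 to CKO4, and to 99, 250, 209 and 149 in WT1 to WT4. In these reads, not scaled to the library totals or gene lengths, WT2 and WT3 were highest and WT1 lay within the CKO range. In summed RPKM the 54 genes reached 3.23 to 4.39 in CKO and 5.21 to 11.7 in WT. On that scale the groups did not overlap, and the sum was 2.40-fold lower in CKO. The highest WT mean among them was that of H2bc8, an H2B gene, at 0.877 ± 0.275 RPKM against 0.181 ± 0.186 RPKM in CKO (SD, n = 4). It was picked by its WT level, which favours a lower value in CKO. It had 62 reads in all. Of its 50-base stretches 49.7% also occur in other genes, 45.0% in H2bc4, and could have drawn reads from them. Not every low member was lower in CKO: H2bc21 was at 0.451 ± 0.199 RPKM in CKO and 0.384 ± 0.200 RPKM in WT (SD, n = 4).

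The transcripts of proteins that make and process histone mRNA did not show a difference past the threshold in the main comparison. Of 18 such genes, 13 were tested and 0 passed in limma, with a median log2 change of -0.21 against -0.12 for all tested genes. By limma-voom, and in limma without a filter, 0 passed as well. An unadjusted limma p under 0.05 was seen in 3 of them, Eri1, Ncbp2 and Lsm1, each lower. Eri1, an exonuclease that trims the end of histone mRNA, had a log2 change of -0.50 (SE 0.14) with a limma adjusted p of 0.0501. Its groups did not overlap (1.01 to 1.88 RPKM in CKO, 2.29 to 3.23 RPKM in WT). It passed in 3 of the 15 other settings. Ncbp2, the small subunit of the cap-binding complex, had a log2 change of -0.42 (SE 0.16; limma adjusted p = 0.109), and Lsm1, part of the ring that starts histone mRNA decay, one of -0.26 (SE 0.11; limma adjusted p = 0.167). Slbp, the protein that binds the stem-loops printed above, is named outside the rule for its role. It measured 3.53, 2.79, 2.78 and 2.08 RPKM across CKO1 to CKO4 and, across WT1 to WT4, 3.89, 3.02, 3.34 and 4.27 RPKM, and its groups overlapped (log2 change -0.29, SE 0.14; limma adjusted p = 0.200).

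Of 28 histone chaperones and deposition factors, 21 were tested, and 3 fell and 1 rose, beside 5.74% and 1.42% of all tested genes. Their median log2 change was -0.21, against -0.12 for all tested genes. Set, a chaperone that also binds H1, fell from 36.2 to 24.4 RPKM on average (log2 change -0.57, SE 0.14; limma adjusted p = 0.0309), with all 4 CKO libraries below all WT libraries. Rbbp4, a subunit of chromatin assembly factor CAF-1 and other complexes, fell with a log2 change of -0.46 (SE 0.12; limma adjusted p = 0.0381), and Asf1a, which hands H3 and H4 to other chaperones, with one of -0.40 (SE 0.11; limma adjusted p = 0.0478). Hjurp, which loads the centromeric variant CENP-A, rose from 1.03 ± 0.203 to 1.81 ± 0.248 RPKM (SD, n = 4; log2 change 0.47, SE 0.11; limma adjusted p = 0.0328). With CKO2 or any 1 of the WT libraries left out, none of these 4 genes passed, and Asf1a passed in 1 of the 15 other settings. Their log2 changes kept their sign with each library left out, at -0.63 to -0.42 for Set, -0.50 to -0.39 for Rbbp4, -0.44 to -0.36 for Asf1a and 0.40 to 0.52 for Hjurp. The calls over all genes also fell, to 185 to 297 without CKO2, CKO4 or a WT library. In the whole set of 48 tested genes of the 4 related lists, 7 fell and 1 rose, and the total past the threshold was 3 without CKO2 or any 1 of the WT libraries and 4 without CKO4.

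Some high-mobility-group proteins bind linker DNA where H1 also binds. In the list of other variants and high-mobility-group proteins, 12 of 15 names were in the table and 7 were tested. Of these 2 fell and 0 rose, beside 5.74% and 1.42% of all tested genes. Their median log2 change was -0.37, against -0.12 for all tested genes. Hmgb3 measured 2.50, 2.09, 2.47 and 1.67 RPKM across CKO1 to CKO4 and, across WT1 to WT4, 3.91, 4.07, 4.22 and 3.87 RPKM. These groups were well apart (log2 change -0.66, SE 0.12; limma adjusted p = 0.00931), and the gene passed in all 15 other settings. Hmgb1 fell with a log2 change of -0.53 (SE 0.15; limma adjusted p = 0.0491) and passed in 2 of the 15.

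Genes of S phase and mitosis moved in both directions. Of 23 such genes only 7 were tested, of which 2 fell and 0 rose, beside 5.74% and 1.42% of all tested genes. The median log2 change of the 7 was -0.26, against -0.12 for all tested genes. Mcm6, a subunit of the replicative helicase, measured 2.84, 2.93, 3.12 and 2.32 RPKM across CKO1 to CKO4 and, across WT1 to WT4, 5.39, 6.48, 4.59 and 4.26 RPKM (log2 change -0.69, SE 0.14; limma adjusted p = 0.0139). Pcna, the sliding clamp of DNA polymerase, measured 11.2, 9.40, 10.2 and 8.22 RPKM across CKO1 to CKO4 and, across WT1 to WT4, 14.3, 16.5, 14.1 and 16.6 RPKM (log2 change -0.61, SE 0.12; limma adjusted p = 0.0141). In both genes all CKO libraries lay below all WT libraries, and both passed in all 15 other settings. The other helicase subunits tested, Mcm2, Mcm3 and Mcm7, did not pass, with log2 changes of -0.22, -0.04 and 0.24. They were named after their values were seen.

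The filter had left out 16 of the 23, among them the genes of mitosis, and the genes named here were picked after their values were seen. Most of the mitosis genes were higher in CKO, but not Cdk1, the kinase that starts mitosis, at 0.267 ± 0.0279 RPKM in CKO and 0.272 ± 0.0879 in WT (SD, n = 4; SE of the log2 change 0.06; adjusted p = 0.989 in limma without a filter). In limma without a filter, 6 of those 16 rose and 0 fell, where 0.675% of all 16888 genes rose and 2.07% fell. In 7 of the 16 every CKO library was above every WT library, against 2.23% of all genes below the filter. Top2a, the topoisomerase of dividing cells, measured 0.977, 0.989, 0.940 and 1.48 RPKM across CKO1 to CKO4 and, across WT1 to WT4, 0.0660, 0.375, 0.165 and 0.0125 RPKM. The highest WT library was far below the lowest CKO library, and the reads summed to 765 in CKO and 103 in WT (log2 change 0.86, SE 0.12; adjusted p = 0.00878 in limma without a filter). Birc5, which acts with the kinase Aurkb at the mitotic spindle, measured 0.782, 0.629, 0.663 and 1.11 RPKM across CKO1 to CKO4 and, across WT1 to WT4, 0.0323, 0.128, 0.165 and 0.0675 RPKM (log2 change 0.70, SE 0.09; adjusted p = 0.0066 in limma without a filter). Plk1, a mitotic kinase, was at 0.494 ± 0.0812 RPKM in CKO and 0.0460 ± 0.0478 RPKM in WT (SD, n = 4; log2 change 0.51, SE 0.06; adjusted p = 0.00313 in limma without a filter). Mki67, the antigen Ki-67 of cycling cells, Ccnb1 and Ccna2 also rose, with adjusted p of 0.0331, 0.0271 and 0.0491 in the same limma fit. Aurkb did not overlap either but did not pass (adjusted p = 0.0538 in that limma fit), with WT2 at 0.413 RPKM and the other WT libraries at 0.0154 to 0.0161 RPKM. In the same fit Chaf1a, the large subunit of CAF-1, rose from 0.0770 to 0.278 RPKM (adjusted p = 0.0287 in limma without a filter), and Hmga2, a high-mobility-group gene, rose from 0.0228 to 0.202 RPKM (adjusted p = 0.00878 in limma without a filter). Cenpa, which encodes CENP-A, was 1.93-fold higher in CKO with no overlap and did not pass (adjusted p = 0.0996 in limma without a filter). It was at 0.546 ± 0.0497 RPKM in CKO and 0.283 ± 0.138 RPKM in WT (SD, n = 4). Over the 4 related lists, 2 other genes below the filter were lower in CKO with no overlap, and neither passed. Nasp, a chaperone that holds H3 and H4, was 1.95-fold lower, at 0.577 ± 0.149 RPKM against 1.12 ± 0.193 RPKM (SD, n = 4; adjusted p = 0.0547 in limma without a filter). Ccne1, the cyclin E1 of S phase entry, was 2.38-fold lower, at 0.306 ± 0.0922 RPKM against 0.729 ± 0.369 RPKM (SD, n = 4; adjusted p = 0.15 in limma without a filter). The CKO libraries thus had lower replication-dependent histone levels and lower levels of the S phase genes Mcm6 and Pcna. They also had higher levels of the 6 genes of S phase and mitosis that rose without a filter. Those 6 were at 1.48 RPKM or less in every library.

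**Figure D5:**
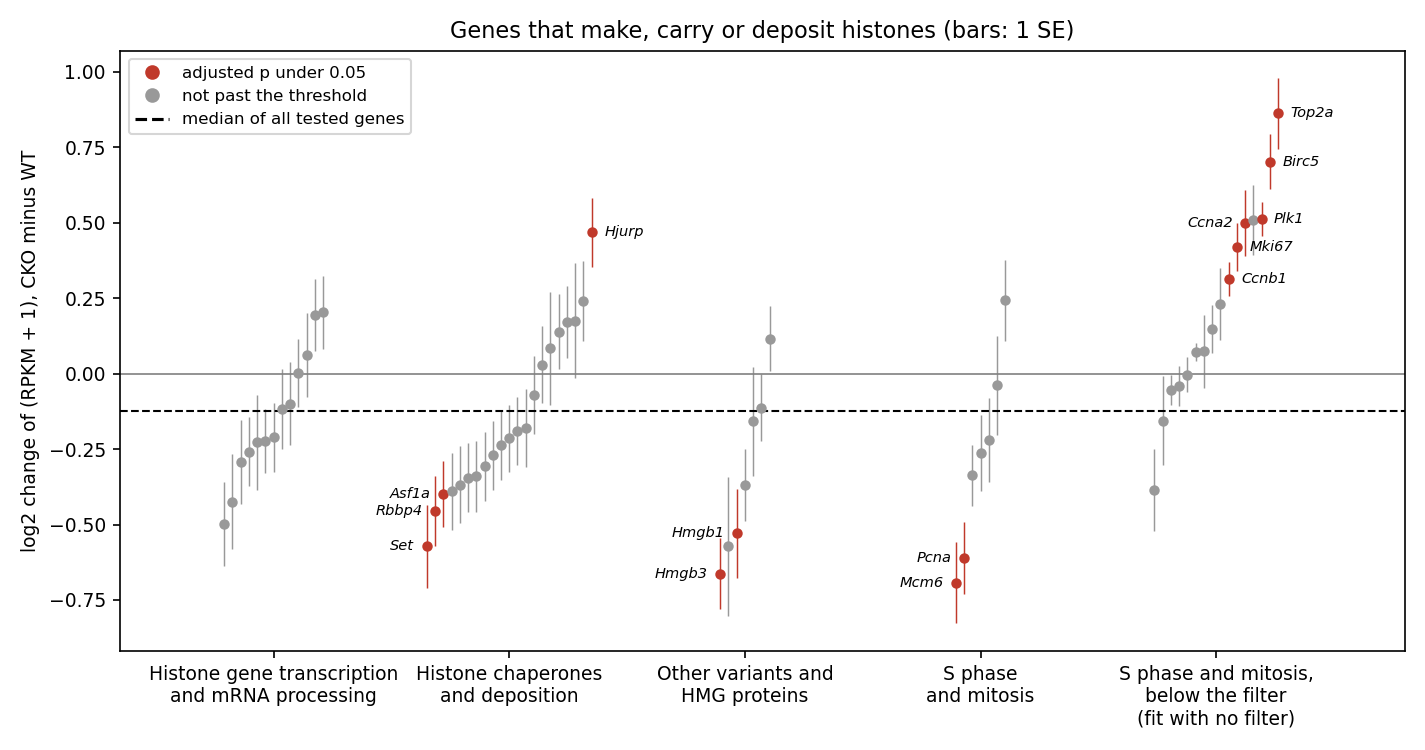
Log2 change of RPKM + 1 (CKO minus WT) with 1 SE for genes that make, carry or deposit histones or act in the cell cycle, by list, with genes past an adjusted p of 0.05 in red and the median of all tested genes (-0.12) dashed. The last column holds the 16 genes of S phase and mitosis below the filter, from the fit without a filter, where Top2a (0.86) and Birc5 (0.70) are highest, while Mcm6 (-0.69) and Pcna (-0.61) are lowest in the column before it.

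The makeup of the tissue was read from marker genes, and the part of these values in the histone differences was not tested. The 9 acinar markers summed to 209500 to 243400 RPKM in CKO and 219000 to 237900 RPKM in WT, and 0 of the 9 passed in limma (1, higher, at an unadjusted p under 0.05, and 0 by limma-voom). These markers of pancreas were high in every library. Acinar enzyme reads were 61.3% ± 4.15 of all reads in CKO and 59.1% ± 1.42 in WT (SD, n = 4), with overlap. The 5 duct markers summed to 223 to 426.1 RPKM in CKO and 426.4 to 491 RPKM in WT, so that these groups nearly touched but did not overlap. Of the 5, 4 had lower means in CKO, and 1, Sox9, was lower past the threshold. All 8 macrophage markers had lower means in CKO, with sums of 178 to 373 RPKM against 333 to 621 RPKM, and 1, Tyrobp, was past the threshold. All 7 neutrophil markers also had lower means in CKO, with sums of 14.3 to 46.8 against 37.6 to 84.0 RPKM and 0 past the limma threshold (2 lower at an unadjusted p under 0.05, 0 by limma-voom). The 6 B and plasma cell markers were near 0 in CKO (0.174 to 0.496 RPKM) and in WT1 and WT4, but summed to 13.2 RPKM in WT2 and 4.55 RPKM in WT3, the libraries in which the low histone members were also highest. The T cell markers, 5 of 6 in the table, summed to at most 1.09 RPKM, also in WT2. Adipocyte markers were at 26.3 to 34.4 RPKM in CKO and 32.8 to 70.5 RPKM in WT, and 1 of 5, Lpl, was lower past the threshold. Of the 4 islet markers 1, Gcg, was higher past the threshold, of 3 endothelial markers 1, Kdr, was lower, and of 4 fibroblast markers 0 passed in limma (0 also at an unadjusted p under 0.05 and by limma-voom). At an unadjusted limma p under 0.05, 5 of 8 macrophage and 3 of 4 tested duct markers were lower. So were 1 adipocyte and 1 endothelial marker, while 3 of 4 islet markers were higher. By limma-voom 0 macrophage and 0 islet markers passed, while 1 duct, 1 adipocyte and 1 endothelial marker did. No marker in the table was at 0 in every library.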

How the data were processed

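RNA-seq levels from 8 mouse pancreas samples were analysed, 4 CKO and 4 WT, grouped by the genotype in their labels. The values deposited by the authors are RPKM per gene. The table names no unit, which was read from its numbers: 16068 genes were above 0 in 2 or more libraries, and for 16056 of them (99.93%) the gene's length and the library's total turned each value into whole reads, within 0.05 reads. The build is mm10, per the submitters' processing notes. The sources used here do not give the aligner, the counting or the annotation. There was 1 unnamed value column, which was not used. The genes' reads made up at least 99.96% of each library total, and a floor of 3 reads covers only counting error.

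A count test had been planned, with limma for normalized values, and limma was used because the table holds RPKM. Limma 3.58.1 in R 4.3.3 was run on log2(RPKM + 1) over genes at 1 RPKM or more in 4 or more libraries, fitting group alone with trended, robust variances and Benjamini-Hochberg adjustment over all tested genes at 0.05. A log2 change on this scale understates the change of low genes. The steps were tested on simulated data. Other settings were a pseudocount of 0.1, no filter, no mean trend, median centring, totals without acinar enzymes, leaving out each library, a replicate block, and limma-voom on recovered reads.

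The members and the gene lists were chosen with earlier results of these data known. Members with a mean of at least 1 RPKM were named, and from each related list every gene past the threshold or else the 3 with the smallest unadjusted p. Gene spans and promoters are from RefSeq (GRCm38.p6; 72 of the 73 members matched, 66 had a promoter), and transcripts from GENCODE M21. Shared sequence was counted as identical stretches of 50 bases between transcripts of different genes. The other steps used pandas 2.3.3, NumPy 2.4.6 and Matplotlib 3.10.9 under Python 3.11.15.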

Additional observations from a re-analysis of the deposited data

Results flagged for a closer look

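Among 60 groups of 4 libraries checked, 2 held a library whose gap to its nearest neighbour was above the 95% critical value of Dixon's test, and chance flags about 1 group in 20. H3f3b measured 71.9 RPKM in WT4, and 79.3 to 79.9 RPKM in the other WT libraries. Set measured 17.3 RPKM in CKO4, and 26.1 to 27.1 RPKM in the other CKO libraries. Without CKO4, Set still passed the limma threshold.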

How the results depend on the processing

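The log2 changes of H1f3, H3c14 and H4c9 grew in size to -1.62, -1.78 and -1.27 by limma-voom. Of 285 log2 changes of the 19 members over the 15 other settings, 284 were negative, the exception being H2az2 with median centring (0.01). The members past the threshold went from 9 to 5 with median centring, 6 with limma-voom, 6 with no filter, 7 with totals without acinar enzymes and 8 with the replicate block. With no filter, H2bc3 and H2bc8 were among the 6. Leaving out 1 library at a time gave 5 to 11 members, 185 to 686 genes of all tested against 610, and 3 to 8 related genes against 8. Of all genes 423 passed with limma-voom. The 11 related genes past the threshold with no filter were 3 lower and 8 higher, against 7 lower and 1 higher. The log2 ratio of the summed replication-dependent core level stayed between -1.43 and -1.08 over all settings tried, against -1.33. The calls of the mitosis genes come from the fit without a filter alone.

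With the replicate number as a block, 548 genes passed. The numbers did not pair the samples: the deviations of samples with the same number correlated at -0.12, -0.32, 0.14 and 0.03, and 1 of 4 CKO libraries correlated best with its own number. Eri1 passed in 3 of the 15 settings, among them this block.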
